A study of Mus musculus with 15 samples.

Results

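A set of 138 genes divided 5 mouse embryonic stem (ES) cell lines into R1, OpB6D2 and FpB6D2 on one side and NmB6D2 and FpB6CBA on the other. The genes were chosen by their own expression values. A gene entered when the means of R1, OpB6D2 and FpB6D2 all lay at least 1 log2 unit, which is a 2-fold difference, above both other line means, or all at least 1 below them. Of 12813 genes with a measurable value, 45 (0.351%) met the rule as higher in R1, OpB6D2 and FpB6D2 and 93 (0.726%) as lower. These 2 percentages are a product of the rule, and no test was run on the difference between the sides.

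RNA of the 5 lines was labelled and hybridised to whole-genome mouse expression arrays, 3 per line and 15 in all, to set ES cells from fertilised embryos beside parthenogenetic ones, which come from an activated egg without a sperm. NmB6D2 came from natural mating of C57BL6 females with DBA2 males. R1 is an established ES line that was purchased, and its strain is not given in the sources used here. OpB6D2 was made by activating naturally ovulated oocytes of B6D2F1 females, the offspring of a C57BL6 mother and a DBA2 father. FpB6D2 and FpB6CBA were made by activating oocytes grown in cultured preantral follicles of prepubertal females, from B6D2F1 and from B6CBAF1 (C57BL6 mother, CBA/Ca father) respectively. Each line is 1 derivation, and no combination of mode of origin, oocyte source and cross is known to be represented by a second line. The split cuts across mode of origin, since each side holds fertilised and parthenogenetic lines, and it cuts across the cross, since B6D2 lines stand on both sides. The labels do not say whether the 3 arrays of a line came from separate cultures, so every p-value below reflects how far arrays of the same line scattered, and that scatter may be technical.

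Epithelial cells hold together through tight junctions built from claudins and occludin. They also use epithelial factors such as the splicing regulator ESRP1 and AP1M2, a subunit of a protein-sorting adaptor. ZEB1 is a transcription factor that represses many such genes and binds E-box sequences, and mouse ES cells are themselves epithelial cells that express E-cadherin. Genes of the hypoxia response are induced by HIF transcription factors through a short DNA element when oxygen is low, while naive pluripotency is kept by a network of factors that includes KLF4 and TBX3.

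The lower genes held 10 of 32 tested genes of a list of epithelial junctions and keratins and 5 of 24 tested genes of a list of hypoxia-inducible genes outside glycolysis, where 0.726% of all genes tested were lower members. The lists were chosen with earlier results of these data known, so these shares are no test of over-representation. Stretches of 6 promoters of these members are shown because they hold a motif tied to one of the regulators above. Each is the 120 bases before the annotated start of the gene on the gene's own strand, from RefSeq on GRCm38.p6, with the motif in capitals. In the first 3 the capitals mark CACCTG, the E-box that ZEB proteins bind, or its reverse complement. Ap1m2 lies on the minus strand at chr9:21312334-21312453, Cldn4 on the minus strand at chr5:134946935-134947054 and Krt7 on the plus strand at chr15:101412283-101412402.
Ap1m2: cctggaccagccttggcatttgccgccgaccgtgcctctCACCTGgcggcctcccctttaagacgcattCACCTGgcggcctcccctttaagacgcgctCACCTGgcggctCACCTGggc
Cldn4: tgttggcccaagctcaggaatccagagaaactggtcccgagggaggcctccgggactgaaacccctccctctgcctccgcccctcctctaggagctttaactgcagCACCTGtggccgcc
Krt7: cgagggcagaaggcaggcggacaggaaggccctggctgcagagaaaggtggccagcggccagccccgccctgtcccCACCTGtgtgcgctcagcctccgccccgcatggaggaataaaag

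In the other 3 stretches the capitals mark ACGTG, the core of the hypoxia response element, or its reverse complement, which overlap in Bnip3 as CACGTG. They were taken from members of the hypoxia list. Bnip3 lies on the minus strand at chr7:138909507-138909626, Egln1 on the minus strand at chr8:124949255-124949374 and Ero1a on the minus strand at chr14:45318573-45318692.
Bnip3: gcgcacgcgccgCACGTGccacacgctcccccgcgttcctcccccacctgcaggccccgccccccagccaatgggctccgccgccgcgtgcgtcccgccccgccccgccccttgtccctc
Egln1: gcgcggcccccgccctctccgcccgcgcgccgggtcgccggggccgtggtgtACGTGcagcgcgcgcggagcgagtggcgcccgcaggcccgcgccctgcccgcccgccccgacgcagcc
Ero1a: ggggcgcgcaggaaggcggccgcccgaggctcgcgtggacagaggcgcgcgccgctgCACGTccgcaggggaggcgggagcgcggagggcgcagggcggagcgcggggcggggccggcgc

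Markers of pluripotency were high in every line. Pou5f1 means ran from 11.38 to 12.02, Sox2 from 10.96 to 11.26 and Nanog from 9.81 to 11.39 over the 5 lines, on the log2 scale of the arrays. The Y-linked gene Eif2s3y read 7.99 in R1 and 8.61 in NmB6D2 and between 2.73 and 3.35 in the parthenogenetic lines, so it crossed the split. The spiked hybridisation controls also crossed it, at 10.05 in FpB6D2 and 10.16 in FpB6CBA against 9.49 to 9.57 in R1, OpB6D2 and NmB6D2. FpB6CBA replicate 3 stood apart from the other arrays in its spiked poly-A controls (9.60, against 7.86 to 8.68 on the other 14), and without it 42 genes were higher and 99 lower. The median gene differed by -0.01 between the sides. Because RNA came from whole cultures, fewer cells of a type and less RNA per cell cannot be told apart in any of the values below.

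The gap of a gene is the distance between the line of one side nearest to the other side and the nearest line of that other side. It had a median of 1.28 over the 45 higher genes and 1.30 over the 93 lower genes, and reached 2.27 and 3.35. For all 45 and all 93, every array of one side lay beyond every array of the other. A rule that sets line means at least 1 apart makes this likely, and its share over all genes was not counted. Line means that did not overlap were themselves common, with all of R1, OpB6D2 and FpB6D2 above both others in 16.0% of the genes tested and below in 17.7%. The arrays of the sides were at least 1 log2 unit apart for 24 of the higher and 57 of the lower genes. The median SD between arrays of a line was 0.11 in the members and 0.09 over all genes tested.

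**Figure D1:**
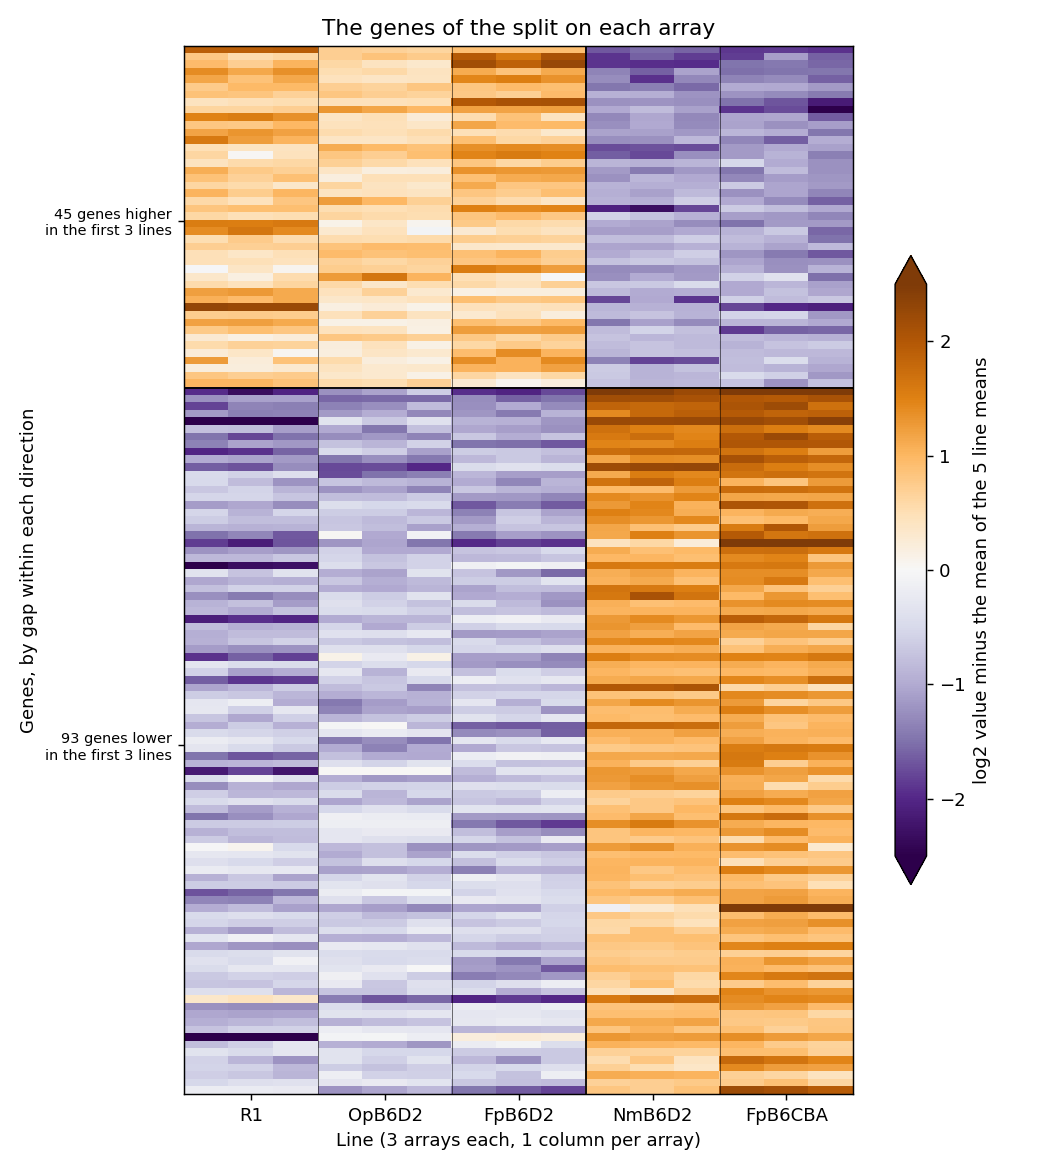
Each row is 1 of the 138 genes and each column 1 of the 15 arrays, with 3 arrays per line. Colour gives the log2 value minus the mean of the 5 line means. The 45 genes above the black horizontal line are orange in R1, OpB6D2 and FpB6D2, the 93 below it are orange in NmB6D2 and FpB6CBA, and the vertical black line divides the sides.

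The member with the widest gap was 2610528J11Rik, known only by a clone name, which was lower in R1, OpB6D2 and FpB6D2 by a gap of 3.35 and at least 12.9-fold between the side means. Where a line of the lower side averaged under 3.86, the median of all values in the files, that line was set to 3.86 for the fold, which is then a lower bound. This applied to 9 of the higher and 17 of the lower genes.

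The largest gap among members with a gene name belonged to Cldn7, which encodes a claudin of tight junctions (chromosome 11, 69964779 to 69967886, GRCm38.p6). Cldn7 read 6.08, 6.22 and 6.23 on the R1 arrays, 5.73, 5.75 and 5.75 on the OpB6D2 arrays, 6.05, 5.69 and 5.82 on the FpB6D2 arrays, 9.46, 9.46 and 9.38 on the NmB6D2 arrays and 9.30, 9.26 and 9.39 on the FpB6CBA arrays. The sides were 3.03 apart at their nearest arrays, and the side means differed 10.9-fold. Within the sides the lines lay close together, with FpB6CBA 0.11 below NmB6D2 (SE 0.08, adjusted p = 0.26 by limma).

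Prss8 encodes a serine protease anchored to the surface of epithelial cells. Its values were 4.82, 4.80 and 4.49 in R1, 4.58, 4.14 and 4.82 in OpB6D2, 4.56, 4.50 and 4.37 in FpB6D2, 7.28, 7.11 and 7.03 in NmB6D2 and 7.31, 7.13 and 7.01 in FpB6CBA. All 9 arrays of the lower side read under 5 and all 6 of the higher side above 7. Cdcp1, a transmembrane protein that is a substrate of Src family kinases, showed the same order. It read 4.18, 4.64 and 4.59 in R1, 4.62, 4.74 and 5.17 in OpB6D2, 4.73, 4.99 and 4.69 in FpB6D2, 7.82, 7.77 and 7.82 in NmB6D2 and 8.04, 8.18 and 7.67 in FpB6CBA. Its 9.04-fold difference between side means was larger than any spread between arrays of a line.

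Galnt3 encodes an enzyme that starts mucin-type O-glycosylation. It read 3.32, 3.09 and 3.12 in R1, 3.32, 3.49 and 3.16 in OpB6D2, 3.28, 3.05 and 3.55 in FpB6D2, 5.89, 6.25 and 6.38 in NmB6D2 and 6.43, 6.31 and 6.34 in FpB6CBA. All 9 arrays of R1, OpB6D2 and FpB6D2 were below the median of all values, so the difference is given as at least 5.29-fold. Tmem30b, a partner subunit of lipid flippases, read 4.85, 4.54 and 4.83 in R1, 5.06, 5.17 and 5.00 in OpB6D2, 5.63, 5.37 and 5.60 in FpB6D2, 7.92, 8.05 and 7.81 in NmB6D2 and 8.30, 8.55 and 8.26 in FpB6CBA. Its nearest lines were FpB6D2 and NmB6D2, 2.40 apart.

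Calml4, a calmodulin-like protein of brush border microvilli, was uneven within the lower side. It read 4.39, 4.22 and 4.08 in R1, 6.91, 6.57 and 6.90 in OpB6D2, 6.35, 6.32 and 6.06 in FpB6D2, 9.48, 9.46 and 9.49 in NmB6D2 and 9.49, 9.41 and 9.64 in FpB6CBA. R1 lay below the other low lines, and OpB6D2 exceeded it by 2.57 (SE 0.11, adjusted p = 1e-10 by limma), while NmB6D2 and FpB6CBA read alike to within 0.04 of each other in their means.

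**Figure D2:**
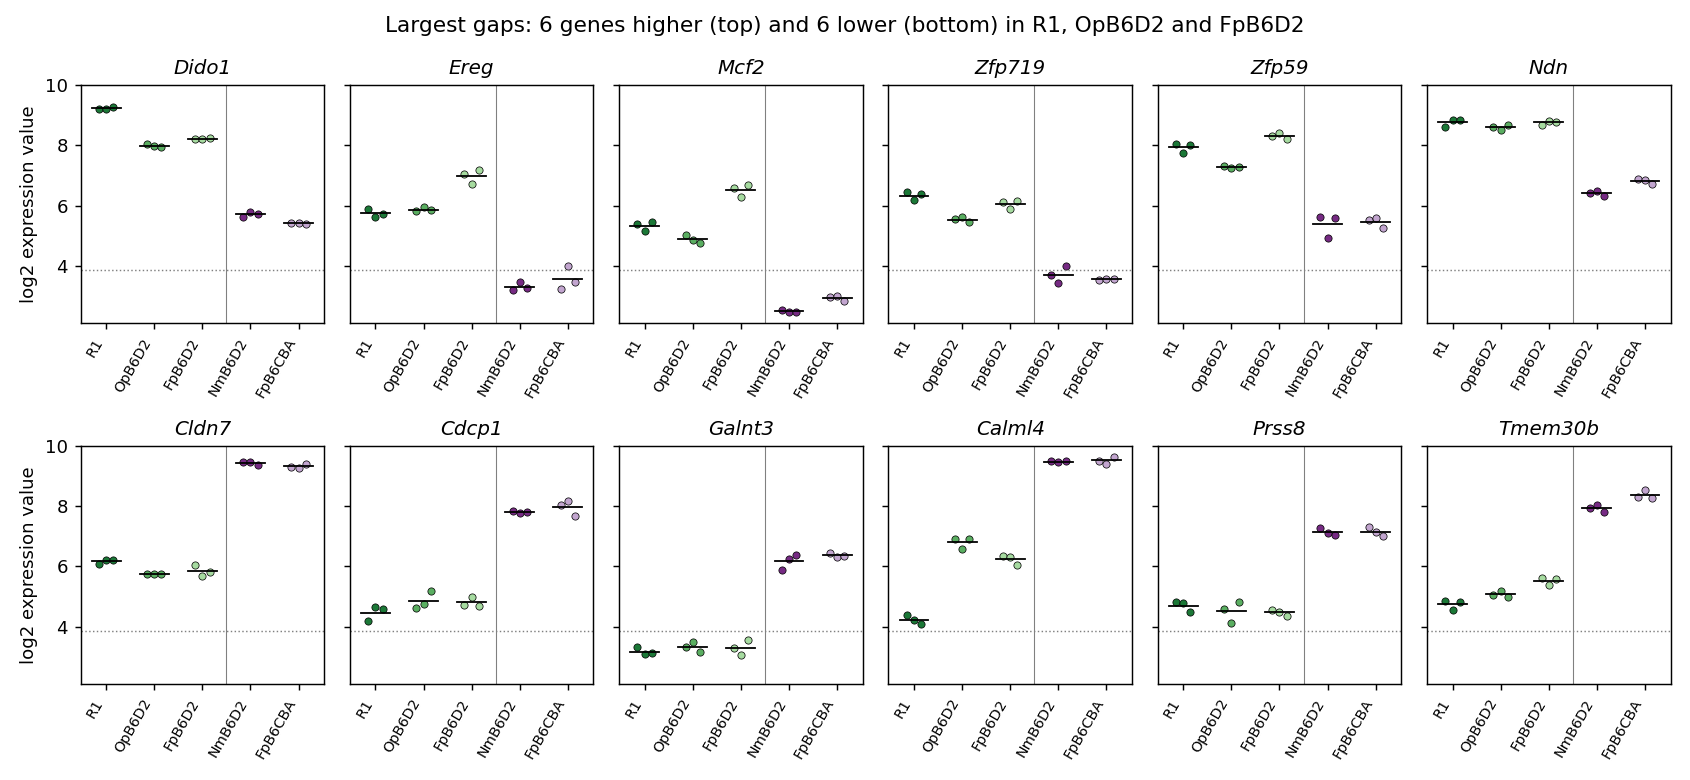
Points are log2 values on single arrays, bars are the means of the 3 arrays of a line, and the dotted line marks 3.86, the median of all values in the files. The top row shows the 6 named genes with the largest gaps that were higher in R1, OpB6D2 and FpB6D2 and the bottom row the 6 that were lower; in every panel all points of one side lie beyond all points of the other.

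The other tight-junction members were Tjp3, Ocln, Cldn3, Cldn4 and Cldn6. Tjp3, a scaffold that anchors claudins, averaged 5.48 ± 0.08 in R1, 5.17 ± 0.11 in OpB6D2 and 5.75 ± 0.11 in FpB6D2 against 7.86 ± 0.13 in NmB6D2 and 8.49 ± 0.15 in FpB6CBA (SD, n = 3 arrays). Ocln, which encodes occludin, averaged 3.72 ± 0.22, 4.80 ± 0.03 and 3.81 ± 0.01 in R1, OpB6D2 and FpB6D2 and 5.98 ± 0.14 and 6.54 ± 0.19 in NmB6D2 and FpB6CBA. Ocln is at the low end of the array's range, and with all its probe sets averaged its gap was 0.93. Cldn4 was level in the 3 low lines, at 6.41 ± 0.18, 6.40 ± 0.06 and 6.42 ± 0.24, and averaged 8.59 ± 0.03 in NmB6D2 and 7.90 ± 0.08 in FpB6CBA. Cldn3, a neighbour of Cldn4 at 39.3 kb on chromosome 5, averaged 5.63, 6.11 and 6.28 in R1, OpB6D2 and FpB6D2 and 7.99 and 7.49 in NmB6D2 and FpB6CBA. Cldn6, a claudin of early embryonic epithelia, was the member most uneven in the opposite sense to Calml4. R1 averaged 7.68 ± 0.06, and OpB6D2 lay 1.94 below it (SE 0.08, adjusted p = 8.6e-11) and FpB6D2 2.34 below it (SE 0.08, adjusted p = 9.5e-12, limma), while NmB6D2 averaged 9.01 and FpB6CBA 8.74.

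The remaining epithelial members have roles in splicing, sorting and the cytoskeleton. Esrp1, an epithelial splicing regulator, averaged 4.18 ± 0.23 in R1, 5.29 ± 0.32 in OpB6D2, 5.33 ± 0.06 in FpB6D2, 7.81 ± 0.05 in NmB6D2 and 7.50 ± 0.22 in FpB6CBA. Ap1m2, a subunit of the adaptor that sorts proteins to the basolateral membrane, averaged 7.08 ± 0.09, 6.03 ± 0.18 and 6.55 ± 0.14 in the low lines and 8.95 ± 0.22 and 9.25 ± 0.03 in NmB6D2 and FpB6CBA. Krt7, a keratin of simple epithelia, averaged 4.80 ± 0.24 in R1, 4.49 ± 0.14 in OpB6D2 and 5.91 ± 0.05 in FpB6D2 against 8.57 ± 0.04 in NmB6D2 and 7.88 ± 0.18 in FpB6CBA, and FpB6D2 exceeded OpB6D2 by 1.41 (SE 0.11, adjusted p = 3.1e-07 by limma). Espn, an actin-bundling protein of microvilli that was in no list, averaged 4.04, 4.06 and 3.81 in R1, OpB6D2 and FpB6D2 and 6.56 and 5.91 in NmB6D2 and FpB6CBA.

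Taken with its 10 members, which the rule itself separates, the epithelial list was lower in R1, OpB6D2 and FpB6D2 in most of its genes. The line means did not overlap and were lower in 26 of its 32 tested genes (81.2%, against 17.7% of all genes tested), none was separated the other way, and the median difference between the sides was -1.25, against -0.01 over all genes. E-cadherin (Cdh1) averaged 9.98, 9.66 and 9.26 in R1, OpB6D2 and FpB6D2 and 10.89 and 10.51 in NmB6D2 and FpB6CBA, a gap of 0.53 that fell short of the rule. The mean level of the 22 list genes that were not members was 7.87 in R1, 6.97 in OpB6D2 and 7.18 in FpB6D2 against 8.34 in NmB6D2 and 8.31 in FpB6CBA. R1 departed from its side in the keratins Krt8 (11.05 in R1, 7.73 in OpB6D2, 9.22 in FpB6D2, 11.24 in NmB6D2, 10.95 in FpB6CBA) and Krt19 (10.25, 5.75, 6.78, 9.29 and 10.06 in the same order) and in the desmosome gene Dsp, and none of these was a member. Of the 32 genes, 9 were lower and 3 higher in OpB6D2 than in R1 at an adjusted p under 0.05 and 2-fold in limma, where 5.31% and 4.94% of all genes were. In FpB6CBA against NmB6D2 1 was higher (Dsp) and none was lower, where 2.57% and 1.63% of all genes were.

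Zeb1 was itself a member, in the opposite direction. It read 7.13, 7.01 and 7.13 in R1, 7.60, 7.53 and 7.56 in OpB6D2, 7.55, 7.68 and 7.39 in FpB6D2, 5.67, 5.83 and 6.04 in NmB6D2 and 5.47, 5.23 and 4.99 in FpB6CBA. Its side means differed 3.62-fold with a gap of 1.24, and its lowest high-side array was 0.97 above its highest low-side array. This rests on 1 probe set, since the other 3 of Zeb1 were under the filter, and with all 4 averaged its gap was 0.35. Related factors were named after their values were seen. Zeb2 averaged 4.07 in R1 and 2.96 to 3.43 in the other 4 lines, and Snai1 averaged 6.98 in R1, 5.34 in OpB6D2, 5.74 in FpB6D2, 4.92 in NmB6D2 and 5.88 in FpB6CBA. Snai2 was separated in the same direction as Zeb1, at 6.03, 6.06 and 5.81 against 4.84 and 5.31, with a gap under 1.

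Markers of other cells that a culture can hold were read beside the epithelial genes. ES cells are often grown on fibroblasts. The mean level of 30 fibroblast genes ran from 7.70 to 8.27 over the arrays of R1, OpB6D2 and FpB6D2. Over those of NmB6D2 and FpB6CBA it ran from 7.17 to 7.86, so arrays of the sides overlapped. The line means did not, at 8.23 in R1, 7.98 in OpB6D2 and 7.739 in FpB6D2 against 7.22 in NmB6D2 and 7.730 in FpB6CBA. FpB6D2 and FpB6CBA were nearly level. Of the 30 genes, 27 had a higher mean in R1, OpB6D2 and FpB6D2, where 6270 of all 12813 did. The median difference was 0.45. None of the 30 was a member, and 7 (23.3%, against 16.0% of all genes) had line means separated as higher and none as lower. The mean level of 20 trophectoderm genes, of which 4 are keratins also counted as epithelial, ran from 5.51 to 6.18 in R1, OpB6D2 and FpB6D2 and from 6.53 to 6.92 in NmB6D2 and FpB6CBA, without overlap. Of these 20, 8, the member Krt7 among them, had line means separated as lower (40%, against 17.7% of all genes) and none as higher. Lists of other embryonic cells departed in single lines. The mean level of 10 mesendoderm genes was 7.31 in R1 and 3.63 to 3.78 in the other lines. That of 29 genes of primitive endoderm and its derivatives was 7.47 in FpB6CBA, 6.26 in NmB6D2 and 6.32 to 6.59 in R1, OpB6D2 and FpB6D2, so it did not follow the split. The part of other cells in the differences was not tested.

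CACCTG was counted after the values of Zeb1 were seen. Within the 250 bases before the annotated start, on either strand, it occurred in 29 of the 77 lower members with a promoter entry (37.7%), in 3 of 34 higher members (8.82%) and in 16% of 10333 tested genes with an entry. Among the epithelial members it was found in 5 of 8, and among all epithelial list genes in 12 of 22 (54.5%). It was also in 3 of 4 hypoxia members with an entry, among them Bnip3, in 28.6% of naive pluripotency genes and in 0 of 17 glycolysis genes. Ap1m2, shown above, held 4 copies, which begin 81, 51, 21 and 9 bases before the start, while Krt7 held 1 at 44 bases and Cldn4 1 at 14 bases. The Ap1m2 gene as a whole reaches to 21312349 in RefSeq, so the last 16 bases of its stretch, with the copy at 9 bases and the final base of the copy at 21, lie inside that longer model. The median GC content of the windows was 60.8% for lower members, 57% for higher members and 60% for all genes, and the median ratio of observed to expected CpG was 0.53, 0.63 and 0.72. The GC box GGGCGG occurred in 74.0% of lower members, 52.9% of higher members and 58.7% of all genes. A match describes these letters in this window and does not show that a factor was bound.

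Hypoxia-inducible genes formed the next group among the lower members. Ndrg1, a stress-responsive gene that rises in low oxygen, read 7.28, 7.57 and 7.47 in R1, 7.88, 7.74 and 8.06 in OpB6D2, 7.16, 7.13 and 6.96 in FpB6D2, 10.11, 10.04 and 10.17 in NmB6D2 and 10.65, 10.66 and 10.64 in FpB6CBA. The sides were separated on every array and their means differed 7.49-fold. Its other 4 probe sets had gaps of 1.98 to 2.56. Ero1a, which oxidises the protein-folding machinery of the endoplasmic reticulum, averaged 9.31 ± 0.09, 9.15 ± 0.08 and 8.70 ± 0.09 in R1, OpB6D2 and FpB6D2 and 11.32 ± 0.07 and 11.05 ± 0.01 in NmB6D2 and FpB6CBA. Bnip3, a mitochondrial receptor for autophagy, averaged 9.88 ± 0.08, 10.41 ± 0.08 and 9.63 ± 0.04 against 11.90 ± 0.06 and 11.89 ± 0.02. Both genes were far above the filter value in every line.

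Egln1 encodes PHD2, the oxygen-sensing hydroxylase that marks HIF for destruction. It averaged 7.59 ± 0.06 in R1, 7.87 ± 0.05 in OpB6D2, 6.75 ± 0.21 in FpB6D2, 9.24 ± 0.08 in NmB6D2 and 9.19 ± 0.02 in FpB6CBA. Adm, the vasodilator peptide adrenomedullin, averaged 5.68 ± 0.15, 7.47 ± 0.20 and 6.28 ± 0.14 in the low lines and 8.91 ± 0.07 and 8.99 ± 0.08 in the high lines. Within the low side, OpB6D2 exceeded R1 in Adm by 1.79 (SE 0.10, adjusted p = 3.3e-09), and FpB6D2 was below OpB6D2 in Egln1 by 1.12 (SE 0.09, adjusted p = 2.2e-07, limma).

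Of the 24 hypoxia genes tested, 15 (62.5%, against 17.7% of all genes) had line means separated as lower, and Kdm3a was separated as higher, at 9.68, 9.62 and 9.93 against 9.49 and 9.56. The median difference was -0.96. Members among the 15 were Ndrg1, Ero1a, Bnip3, Egln1 and Adm, which the rule itself separates. The mean level of the 19 list genes that were not members was 8.28 in R1, 7.95 in OpB6D2 and 7.65 in FpB6D2. It was 8.51 in NmB6D2 and 8.70 in FpB6CBA. Pdk1 had a gap of 0.90, Ankrd37 of 0.94 and Egln3, another HIF hydroxylase, of 0.72. Fam162a did not follow the split and was high in R1 (11.43) and FpB6CBA (11.54). The transcript of the HIF subunit Hif1a averaged 10.06, 10.06 and 9.66 in R1, OpB6D2 and FpB6D2 and 9.61 and 9.50 in the others. Of the 24, 8 were lower in FpB6D2 than in R1 and none higher, where 7.58% and 5.74% of all genes were. FpB6CBA exceeded NmB6D2 in 1 (P4ha2), where 2.57% of all genes did. ACGTG occurred in the promoter windows of 3 of the 4 hypoxia members with an entry and 11 of 22 list genes, against 21.5% of all tested genes, 29.9% of lower members and 29.4% of higher members; the longer E-box CACGTG, which contains it, occurred in 8.52% of all genes.

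In glycolysis only the neuronal enolase Eno2 was a member, 1 of 18 genes tested. It averaged 4.61 ± 0.19, 5.16 ± 0.50 and 3.82 ± 0.03 in R1, OpB6D2 and FpB6D2 and 7.23 ± 0.04 and 6.48 ± 0.22 in NmB6D2 and FpB6CBA. All 18 genes had a lower mean in R1, OpB6D2 and FpB6D2 than in the others, with a median difference of -0.60, where 6543 of all 12813 genes did. Line means were separated as lower in 11, Eno2 among them (61.1%, against 17.7% of all genes). Hk1, a hexokinase, came nearest to the rule with a gap of 0.89.

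**Figure D3:**
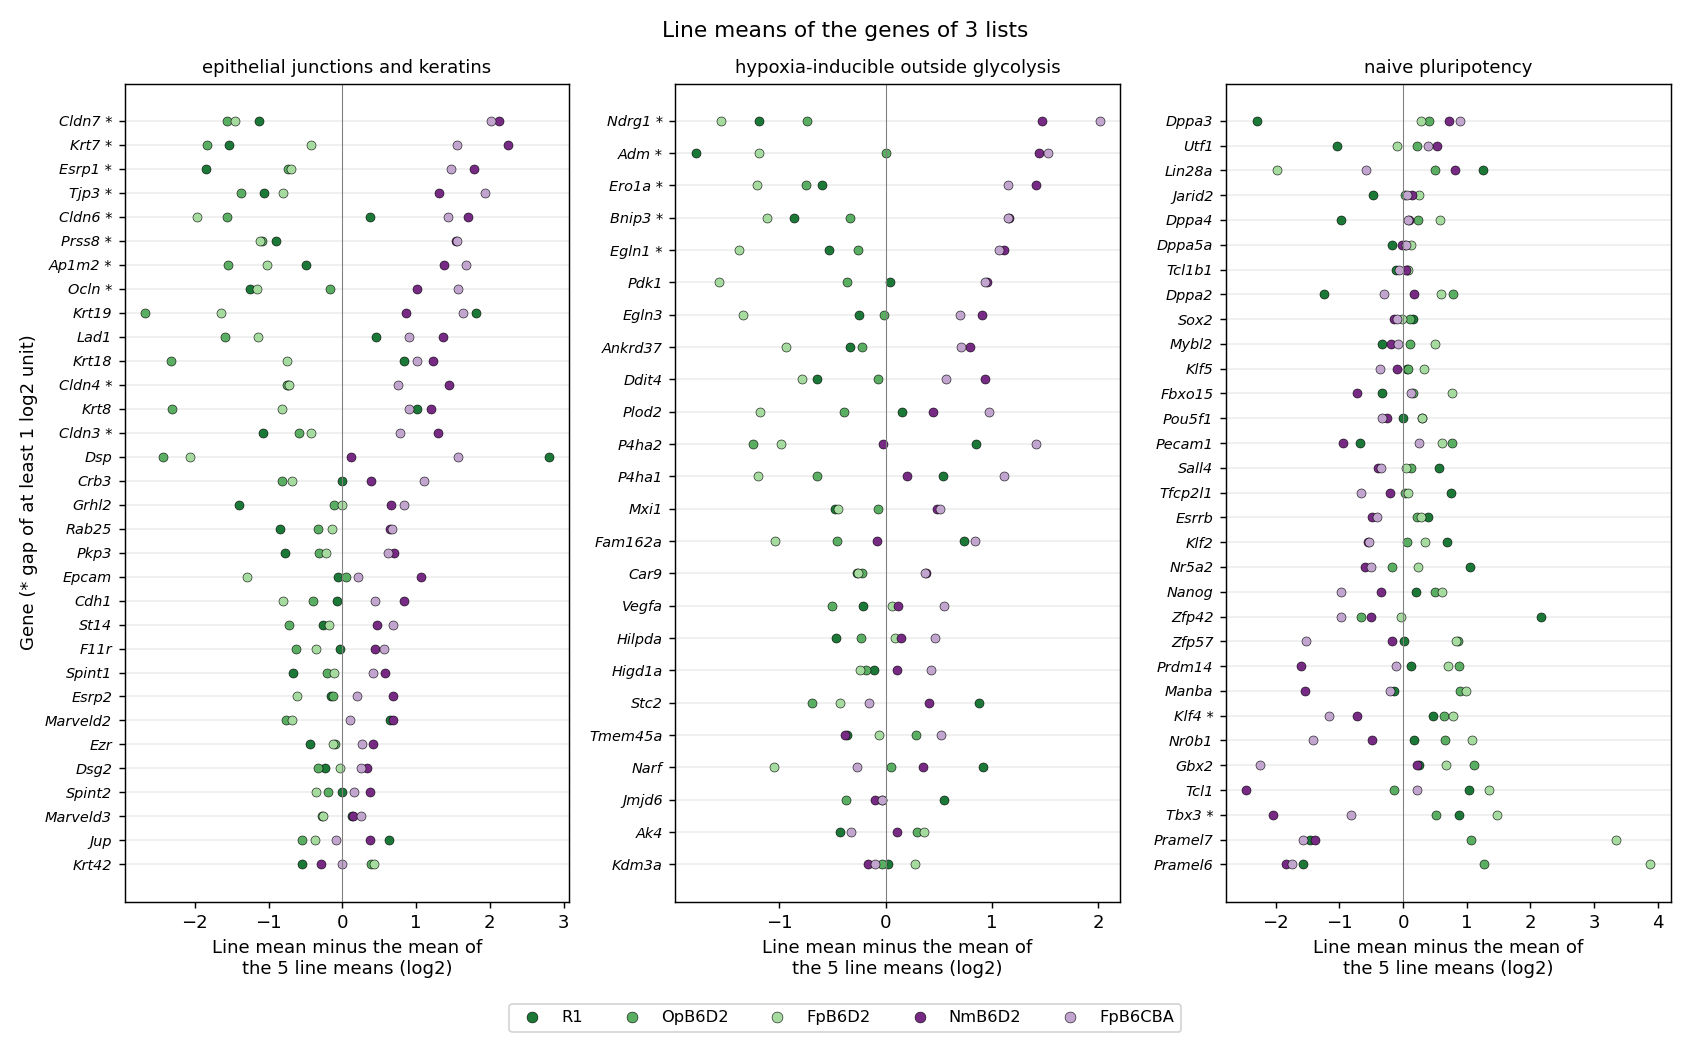
Points are the means of the 5 lines for each tested gene of 3 lists, as log2 values relative to the mean of the 5 line means; an asterisk marks a gap of at least 1 log2 unit. In the epithelial panel NmB6D2 and FpB6CBA lie to the right in 26 of 32 genes and in the hypoxia panel in 15 of 24, while in the panel of naive pluripotency they lie to the left in 17 of 31.

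Among genes of the amino acid stress response, 3 of 20 were lower members (15%, against 0.726% of all genes). Line means were separated as lower in 12 (60%, against 17.7%), and Atf4 alone was separated as higher. The 12 include the 3 members, which the rule itself separates. The mean level of the 17 list genes that were not members was 9.53 in R1, 9.65 in OpB6D2 and 9.92 in FpB6D2. It was 10.23 in NmB6D2 and 10.30 in FpB6CBA. Nupr1, a small stress-induced chromatin protein, averaged 7.84 ± 0.14 in R1, 9.04 ± 0.11 in OpB6D2, 9.37 ± 0.09 in FpB6D2, 10.77 ± 0.02 in NmB6D2 and 11.15 ± 0.19 in FpB6CBA, and R1 was below OpB6D2 by 1.20 (SE 0.10, adjusted p = 9.8e-08 by limma). Aldh1l2, a mitochondrial enzyme of folate metabolism, averaged 5.20, 5.38 and 5.21 in the low lines and 6.97 and 7.24 in the high lines. Slc7a11, the cystine importer, averaged 3.67, 4.10 and 3.95 against 5.27 and 5.30, near the filter value, and its gap fell to 0.57 with all probe sets averaged. Atf4, the transcription factor of this response, averaged 11.52, 11.30 and 11.74 in R1, OpB6D2 and FpB6D2 and 11.09 and 11.15 in NmB6D2 and FpB6CBA. Fgf21, a hormone that was in no list, averaged 3.65, 4.23 and 4.16 in the low lines and 5.33 and 5.67 in the high lines.

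The other lower members from the lists were single genes. Cdkn1c, the maternally expressed cyclin-dependent kinase inhibitor, averaged 6.01, 5.46 and 5.72 against 7.21 in NmB6D2 and 7.81 in FpB6CBA. Ddx4, an RNA helicase of germ cells, averaged 5.61, 6.02 and 5.87 against 7.43 and 7.49, and it was 1 of 28 germ line genes tested. Gpx2, an epithelial glutathione peroxidase, averaged 6.40, 7.27 and 6.68 against 8.36 and 9.05.

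Among the 45 genes that were higher in R1, OpB6D2 and FpB6D2, Dido1 had the largest gap. Dido1, a chromatin protein with a PHD finger, read 9.21, 9.22 and 9.26 in R1, 8.03, 7.99 and 7.94 in OpB6D2, 8.20, 8.21 and 8.23 in FpB6D2, 5.64, 5.79 and 5.73 in NmB6D2 and 5.43, 5.44 and 5.38 in FpB6CBA. The sides were far apart on this probe set, by 7.51-fold, but its 2 other probe sets above the filter had gaps of -0.20 and -0.88, that is, overlapping lines. The membership of Dido1 thus rests on 1 probe set.

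Ereg, the growth factor epiregulin, read 5.89, 5.63 and 5.72 in R1, 5.81, 5.95 and 5.85 in OpB6D2, 7.06, 6.71 and 7.18 in FpB6D2, 3.19, 3.48 and 3.25 in NmB6D2 and 3.25, 4.00 and 3.48 in FpB6CBA. It was at or near the filter value in NmB6D2 and FpB6CBA and highest in FpB6D2, which exceeded R1 by 1.24 (SE 0.16, adjusted p = 1.2e-05 by limma). Mcf2, a guanine nucleotide exchange factor encoded on the X chromosome, read 5.38, 5.15 and 5.47 in R1, 5.03, 4.86 and 4.77 in OpB6D2, 6.59, 6.30 and 6.68 in FpB6D2, 2.52, 2.48 and 2.47 in NmB6D2 and 2.96, 3.00 and 2.85 in FpB6CBA. All 6 arrays of the lower side were under the filter value, so its difference is at least 3.29-fold.

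The zinc finger genes Zfp719 and Zfp59, both on chromosome 7, came next, and what they regulate is less known. Zfp719 read 6.44, 6.18 and 6.39 in R1, 5.55, 5.62 and 5.45 in OpB6D2, 6.14, 5.90 and 6.16 in FpB6D2, 3.71, 3.44 and 3.98 in NmB6D2 and 3.53, 3.56 and 3.58 in FpB6CBA. Zfp59 read 8.04, 7.74 and 8.02 in R1, 7.31, 7.25 and 7.27 in OpB6D2, 8.32, 8.40 and 8.22 in FpB6D2, 5.62, 4.94 and 5.58 in NmB6D2 and 5.53, 5.59 and 5.26 in FpB6CBA. Another zinc finger gene, Zfp936, lies 387 kb from Zfp719 and was also a member. In Zfp936 FpB6CBA was 1.08 below NmB6D2 (SE 0.15, adjusted p = 3.2e-05 by limma).

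Ndn encodes necdin, a growth suppressor expressed from the paternal allele. It read 8.63, 8.84 and 8.84 in R1, 8.59, 8.52 and 8.69 in OpB6D2, 8.69, 8.82 and 8.77 in FpB6D2, 6.42, 6.49 and 6.32 in NmB6D2 and 6.89, 6.86 and 6.73 in FpB6CBA. The fertilised line R1 and the parthenogenetic lines OpB6D2 and FpB6D2 thus lay between 8.52 and 8.84 on all 9 arrays, and the fertilised line NmB6D2 was the lowest of the 5. Its 4 other probe sets above the filter had gaps of 0.90 to 1.76. Ndn was the only member among 20 paternally expressed genes tested. Of these, 8, Ndn among them, had line means separated as higher (40%, against 16.0% of all genes) and 4 as lower (20%, against 17.7%). The median difference was 0.58. Mest had a gap of 0.81, and Peg3, whose mean was 8.87 in NmB6D2 and 5.19 in FpB6CBA, one of 0.70.

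Naive pluripotency contributed 2 of its 31 tested genes. Klf4 averaged 10.60 ± 0.02 in R1, 10.77 ± 0.04 in OpB6D2, 10.91 ± 0.08 in FpB6D2, 9.40 ± 0.05 in NmB6D2 and 8.95 ± 0.11 in FpB6CBA, and its other probe set had a gap of 1.16. Tbx3 averaged 8.81 ± 0.05, 8.44 ± 0.02 and 9.41 ± 0.05 in R1, OpB6D2 and FpB6D2, 5.88 ± 0.26 in NmB6D2 and 7.11 ± 0.17 in FpB6CBA. Between the lines of the low side, FpB6CBA exceeded NmB6D2 in Tbx3 by 1.22 (SE 0.11, adjusted p = 7.1e-07 by limma). With all its probe sets averaged, Tbx3 had a gap of 0.57. In the list, 17 of 31 genes (54.8%, against 16.0% of all genes) had line means separated as higher, among them Nr0b1 (gap 0.65), Esrrb (0.63), Klf2 (0.60) and Nanog (0.55), 2 were separated as lower, and the median difference was 0.73. The exceptions included Dppa3, which averaged 4.81 in R1 and 7.40 to 8.01 in the other lines, and Zfp42, which averaged 11.36 in R1 and 8.22 to 9.15 elsewhere. The 17 genes separated as higher include the 2 members, which the rule itself separates. The mean level of the 29 list genes that were not members was 9.03 in R1, 9.46 in OpB6D2 and 9.67 in FpB6D2. It was 8.67 in NmB6D2 and 8.65 in FpB6CBA.

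Other higher members were Hmga2, a chromatin protein of embryonic cells, with means of 9.88, 8.62 and 8.80 against 7.32 and 7.35, and Vegfc, a growth factor of lymphatic vessels, with 7.26, 6.61 and 7.07 against 4.66 and 5.53. Car2, a carbonic anhydrase, was graded over all lines, from 11.31 in R1 through 9.49 in FpB6D2, 9.22 in OpB6D2 and 8.14 in NmB6D2 to 7.10 in FpB6CBA. The neighbours OpB6D2 and FpB6D2 in that order differed by 0.27, less than the 2-fold used for calls. Mageh1, a MAGE family gene on the X chromosome, was level on both sides, with 6.42, 6.37 and 6.44 against 4.61 and 4.33. Sh3gl3, an endophilin of membrane traffic, averaged 7.55, 7.10 and 7.71 against 5.52 and 5.56. Rragd, a GTPase that signals amino acid supply to mTORC1, averaged 7.15, 6.44 and 6.36 against 4.81 and 4.81, but its gap was 0.53 with all probe sets averaged. Frmd4a, a scaffold of cell polarity, averaged 7.44, 6.34 and 6.58 against 4.76 and 4.74, and Accsl averaged 5.82, 4.94 and 5.25 against 3.43 and 3.23, at least 2.77-fold.

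**Figure D4:**
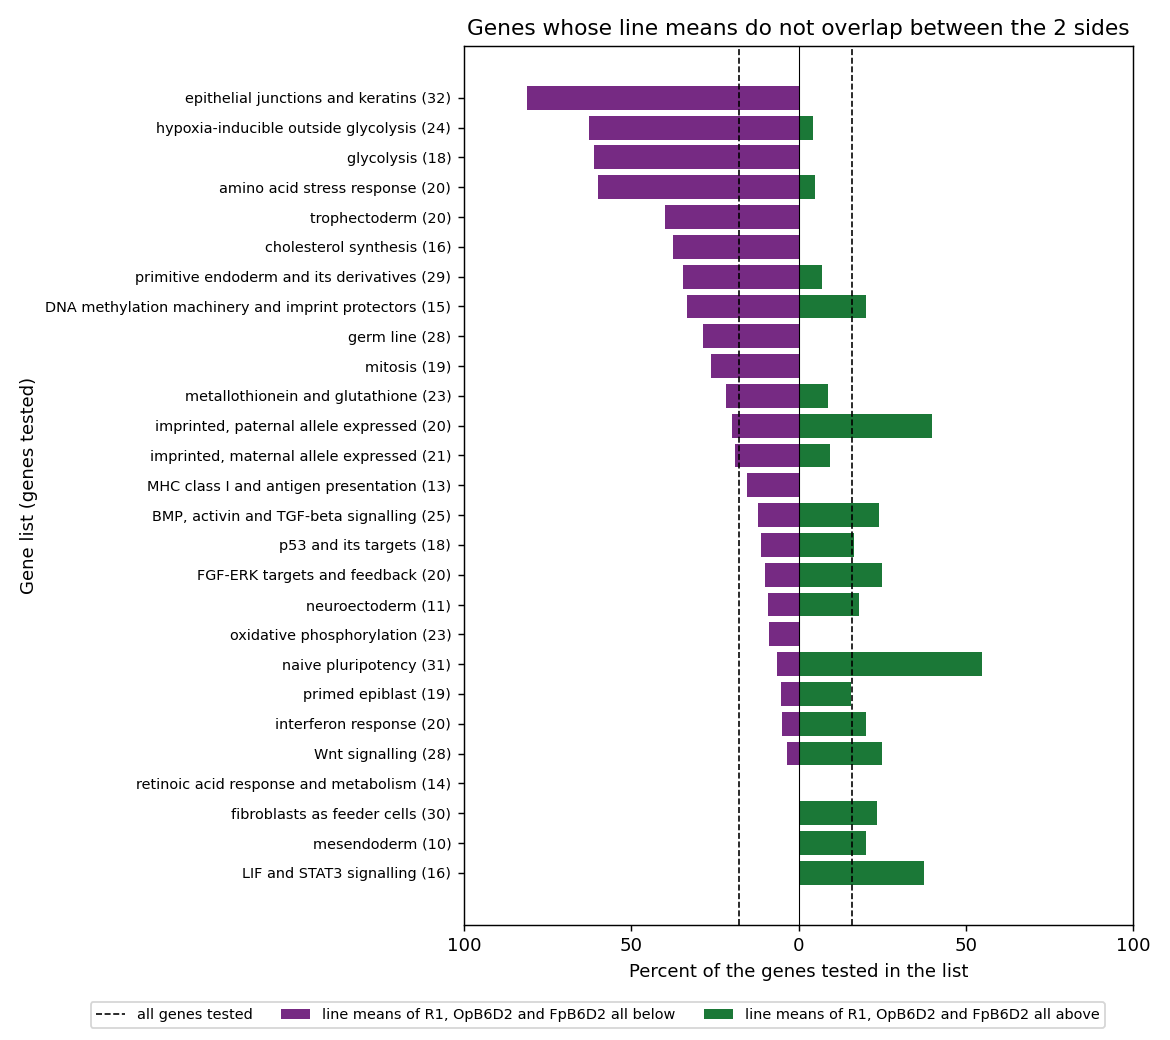
Bars give the percent of tested genes of each list (number tested in parentheses, lists with at least 10) whose line means did not overlap between the sides, lower in R1, OpB6D2 and FpB6D2 to the left and higher to the right. Dashed lines mark all genes tested, at 17.7% and 16.0%. The longest bars to the left are the epithelial (81.2%), hypoxia (62.5%), glycolysis (61.1%) and amino acid stress lists, and the longest to the right is naive pluripotency (54.8%). The bars also count members, which the rule itself separates.

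The 29 lists held 25 of the 138 members, so 113 members were in none. Of 29 genes of primitive endoderm and its derivatives 10 had line means separated as lower (34.5%, against 17.7% of all genes) and 2 as higher, and of 16 genes of cholesterol synthesis 6 were separated as lower (37.5%) and none as higher. Of 16 genes of LIF and STAT3 signalling, which sustains ES cells, 6 were separated as higher (37.5%, against 16.0% of all genes) and none as lower. The member Klf4 is among the 6. Of 23 genes of oxidative phosphorylation 2 were separated as lower and none as higher. Of the 45 higher genes, 7 (15.6%) lay on the X chromosome, which holds 3.24% of the genes tested, and 7 on chromosome 3, which holds 4.61%. The X-linked higher genes were Mcf2, Mageh1, Ap1s2, Slc10a3, Pcdh19, Apex2 and Tro, and 2 of the 93 lower genes were X-linked. Some members were neighbours. Ap1m2 and Slc44a2, a choline transporter-like gene, lie 8.37 kb apart on chromosome 9, Ptpn6 and Eno2 21.3 kb apart on chromosome 6, and Apex2 and Tro 56.5 kb apart on the X chromosome.

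The rule set no limit on the differences between lines of one side, and these were compared by limma. It does use the line of each side nearest to the other, on the same arrays. For the members, these comparisons are therefore not independent of the choice. In these comparisons every gene at least 2-fold apart also had an adjusted p under 0.05 in limma, so the 2-fold limit set the calls. Between FpB6CBA and NmB6D2, 1 of the 45 higher genes was higher in FpB6CBA and 2 were lower, against 2.57% and 1.63% of all genes. Of the 93 lower genes 4 were higher in FpB6CBA and 1 was lower. The largest was Baiap2l1, an adaptor that shapes the actin of membrane protrusions, which averaged 10.81 in FpB6CBA and 6.61 in NmB6D2 and was 4.20 higher in FpB6CBA (SE 0.12, adjusted p = 1.4e-11). B4galnt2, a glycosyltransferase, was 2.57 higher and the iron exporter Slc40a1 1.44 lower (fitted difference -1.44).

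Between OpB6D2 and R1, none of the 45 higher genes was higher in OpB6D2 and 6 were lower, where 4.94% and 5.31% of all genes were called. Of the 93 lower genes 12 were higher in OpB6D2 and 3 were lower, and Niban1, a stress-induced protein, was 2.57 higher (SE 0.06, adjusted p = 2.4e-13). Between FpB6D2 and R1, 5 and 4 of the higher genes and 11 and 3 of the lower genes were called as higher and lower in FpB6D2, against 5.74% and 7.58% of all genes. Between FpB6D2 and OpB6D2 these counts were 5 and 1 of the higher genes and 2 and 6 of the lower genes, against 1.31% and 2.44%. R1 had the lowest mean of the 5 lines in Kcnk1, a potassium channel subunit (5.04, against 6.86 in OpB6D2 and 7.32 in FpB6D2), and in Reep6, a shaper of the endoplasmic reticulum (6.71, against 7.82 and 8.58). In all, 28 of the 45 and 65 of the 93 were called in none of the 4 comparisons. The same share over all genes was not counted, so these counts do not set the members apart from other genes. Both comparisons with R1 share its arrays and are not independent of each other.

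**Figure D5:**
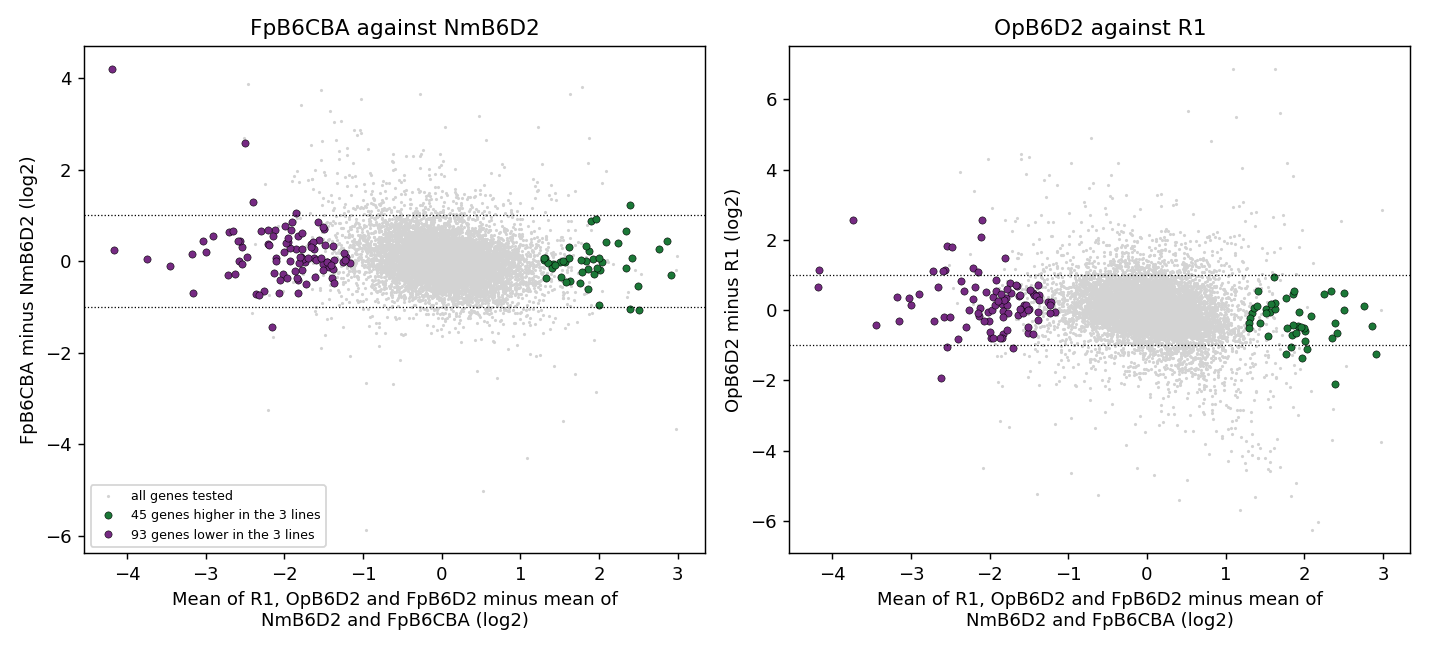
The x axis is the difference between the means of the sides and the y axis the difference between 2 lines of one side, both in log2 units; dotted lines mark 2-fold, grey points are all 12813 genes tested and coloured points the 45 and 93 members. Most members lie between the dotted lines, as do most of all genes tested, so this does not set the members apart. Of all genes, 2.57% were called higher and 1.63% lower in FpB6CBA than in NmB6D2. For OpB6D2 against R1 these shares were 4.94% and 5.31%. The highest point on the left is Baiap2l1, at 4.20.

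Several members were read by more than 1 probe set. Above the filter there were 32 other probe sets for higher genes, of which 30 had the same sign, 26 had separated line means and 11 a gap of at least 1. For the lower genes these numbers were 58, 54, 47 and 20. Other probe sets had the opposite sign in Prmt6 and Flvcr1 among the higher genes and in Epb41l5 and Snhg1 among the lower genes. At the edge of the rule, Tro (gap 1.01) and Cyp2s1 (1.00) were just inside, and Lrrc14 and Plekha2 just outside, each with a gap that also rounds to 1.00.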

How the data were processed

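The deposited table covers 45101 probe sets on 15 arrays. The submitters' processing notes name RMA and affy, without versions or settings. The authors' values run from 1.99 to 13.96 and were read as log2, which the labels do not state. No further normalisation was applied. Each gene was represented by its probe set with the highest mean among those with 1 gene symbol, which gave 18193 genes; 12813 of them had 3 or more arrays at or above 3.864, the median over the whole table. No gene that met the gap was removed by this filter. With 3 arrays per line, the number of arrays limits precision.

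The 4 comparisons within a side were contrasts of 1 limma fit over the 15 arrays (limma 3.58.1, R 4.3.3), with Benjamini-Hochberg adjustment over all genes and calls at an adjusted p under 0.05 and 2-fold. The fit was tested on simulated data. The members and lists were chosen with earlier results of these data known. Genes named were those with the 12 largest gaps in each direction, those at the edge of the rule, every member in a list, and pluripotency and Y-linked checks; Hmga2, Vegfc, Car2, Fgf21, Zeb1, 2610528J11Rik, genes called within a side, genes with discordant probe sets, neighbours and non-members of the lists were named after their values were seen. Promoter windows came from RefSeq (GRCm38.p6). Sequences outside these windows, scanner files and detection calls were not used here.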

Additional observations from a re-analysis of the deposited data

How the results depend on the processing

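The counts of 45 higher and 93 lower genes moved most with the rule itself, to 91 and 149 at a gap of 0.8, to 15 and 30 at a gap of 1.5, and to 24 and 57 where every array had to be 1 log2 unit apart. With the mean over a gene's probe sets, 29 genes were higher, 26 of them among the 45, and 71 lower, 66 of them among the 93. Calls then fell from 538 to 368 for FpB6CBA against NmB6D2 and from 1313 to 1016 for OpB6D2 against R1. They fell from 1707 to 1203 for FpB6D2 against R1 and from 480 to 299 for FpB6D2 against OpB6D2. Leaving out 1 array at a time gave 42 to 48 higher and 90 to 99 lower genes, and 526 to 570 calls for FpB6CBA against NmB6D2, 1311 to 1338 for OpB6D2 against R1, 1680 to 1738 for FpB6D2 against R1 and 469 to 511 for FpB6D2 against OpB6D2; 35 higher and 79 lower genes were members in all 15. The title numbers gave little sign of pairing the arrays. Of 12 pairs with the same number, 1 had a correlation of deviations over 0.1 (range -0.18 to 0.13), and pairs with unlike numbers were not compared. With a replicate block, fitted on the 13 arrays with a number in the title, the counts in that order were 596, 1337, 1755 and 574. Of 65 members named, 23 fell under the gap of 1 in at least 1 alternative, 21 of them with all probe sets averaged, among them Dido1 (0.29), Zeb1 (0.35), B4galnt2 (0.37), Flvcr1 (0.37), Ap1s2 (0.42), Prmt6 (0.50), Rragd (0.53), Tbx3 and Slc7a11 (both 0.57). In that setting the line means of Epb41l5 (gap -0.056) and Snhg1 (-0.52) overlapped. Values near or under 3.86 are limited by the array's signal over background.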
